A study of Mus musculus with 2 samples.

Results

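The insulin-like growth factor (IGF) axis was examined gene by gene in single-cell RNA sequencing (scRNA-seq) of small B16F10 tumours grown in hosts with and without Atf4. Its 9 members were listed by name (Igf1, Igf2, Igf1r, Igfbp2, Igfbp3, Igfbp4, Igfbp5, Igfbp6 and Igfbp7), out of 31053 genes in the matrices. B16F10 is a mouse melanoma line that was injected under the skin of C57BL/6 mice. The hosts were Atf4 WT/WT (WT) or Atf4 Δ/Δ (KO), both 11 weeks old by the labels and pooled over male and female mice. Both genotypes carried Rosa26::CreERT2 and received tamoxifen, so that Cre acted in the whole animal and only the loxP-flanked Atf4 exons were lost in KO. The injected melanoma cells kept their own Atf4. Each genotype was represented by 1 library that pooled 2 tumours, so no difference between genotypes has a replicate check, no test was possible, and every interval given is a 95% interval of counting error only.

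IGF1 and IGF2 are secreted peptides that signal through the receptor tyrosine kinase encoded by Igf1r, which feeds the PI3K–AKT and MAP kinase pathways. In extracellular fluid most ligand is held by IGF-binding proteins, which can prolong its half-life, keep it from the receptor or release it after cleavage by proteases such as PAPP-A and the HTRA family. Macrophages and fibroblasts are known sources of IGF1 in wounds and tumours, and IGFBP7, which binds IGFs weakly, is a familiar protein of the vascular basement membrane.

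The WT library held 38417113 unique molecular identifiers (UMIs) in 6304 barcodes and the KO library 38290024 in 5474. After the filters, 3861 WT and 3557 KO cells were kept, with medians of 3920 and 6279 UMIs, and 10 barcodes occurred in both libraries (1 among kept cells). A marker gate assigned 186 WT and 229 KO cells to cancer-associated fibroblasts (CAFs), 1730 and 1866 to melanoma, 859 and 672 to macrophages, 360 and 263 to monocytes, 71 and 27 to endothelium and 41 and 11 to T/NK cells. A further 201 and 67 cells carried the markers of several classes and were set aside as mixed. All 16 CAF markers and all 12 endothelial markers were detected in their own class in both libraries, but the gate itself selected cells by these markers. Of the 415 CAFs 408 lay in the CAF cluster of an unsupervised grouping. That cluster was named by the same markers, so neither count is an independent check of the classes. The median depth of CAFs was nearly the same in both libraries (3691 and 3699 UMIs). Atf4 itself, the targeted gene, stood at 253 CPM (counts per 1000000 UMIs of the class) in CAFs from WT hosts and 42.3 in those from KO hosts, 177 and 43.2 in macrophages, and 226 and 205 in the melanoma cells. Y-linked transcripts set the libraries apart. The 4 Y-linked genes together had 0 UMIs in the kept WT cells and 294 in the kept KO cells, although the labels give both sexes for both pools. CAF results are therefore also given by Xist and Y-linked UMIs below.

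All members are protein coding, and their positions are given for GRCm38 with the GENCODE vM21 annotation. Igf1 (ENSMUSG00000020053) lies on the plus strand of chromosome 10 from 87858265 to 87937042. Igf1r (ENSMUSG00000005533) lies on the plus strand of chromosome 7 from 67952827 to 68233668, and Igf2 (ENSMUSG00000048583) on the minus strand of the same chromosome from 142650766 to 142666816. Igfbp2 (ENSMUSG00000039323) and Igfbp5 (ENSMUSG00000026185) are neighbours on chromosome 1, on the plus strand from 72824503 to 72852474 and on the minus strand from 72857932 to 72874884, with 5457 bases between their ends. Igfbp3 (ENSMUSG00000020427) runs on the minus strand of chromosome 11 from 7206086 to 7213923, and Igfbp4 (ENSMUSG00000017493) on its plus strand from 99041244 to 99054392. Igfbp6 (ENSMUSG00000023046) occupies 102144362 to 102149511 on the plus strand of chromosome 15, and Igfbp7 (ENSMUSG00000036256) 77349240 to 77408041 on the minus strand of chromosome 5. Igfbp7 overlaps Polr2b, which is transcribed from the opposite strand and had 3891 UMIs over all barcodes, and Igf1 overlaps the antisense gene Igf1os, which had 5. Igf2 overlaps the protein-coding gene Gm49394 on the same strand, which had 0.

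The members divided among the cell classes, each with its own source. Of the ligands, Igf1 came from macrophages and CAFs. Macrophages held 73.1% of all Igf1 UMIs of kept cells (70.5% in WT and 78.3% in KO) and CAFs 17.7%. In WT, the level was 250 CPM (230 to 271) in macrophages and 218 CPM (185 to 255) in CAFs, and these intervals overlap. In KO, macrophages were at 179 CPM (160 to 200) and CAFs at 62.4 CPM (47.1 to 81.0), so that in that library the macrophage level stood above the CAF level beyond counting error. Monocytes, which share the blood-borne origin of many tumour macrophages, had 6 Igf1 UMIs in 623 cells (7.72 CPM), endothelial cells had 1 UMI and T/NK cells 0. Melanoma cells had 0.638 CPM, below the 1.29 (WT) and 0.804 CPM (KO) that free RNA from lysed cells would give them. Igf2, the fetal ligand, had 0 UMIs in every barcode of both libraries. In CAFs, 3 UMIs would have been 4.19 CPM in WT and 3.34 CPM in KO. Igf2 shares its strand with the overlapping gene Gm49394. Whether this overlap kept Igf2 reads from being counted was not tested, so the 0 sets no firm limit on its level.

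The receptor was read widely and at low levels. Melanoma cells, the most numerous and deepest class, held 66.9% of all Igf1r UMIs, but in CPM their level was lower than that of CAFs, at 10.9 CPM in WT and 17.3 in KO. CAFs had 43.3 and 72.4 CPM, and endothelial cells 34.2 and 44.0 CPM from 11 and 5 UMIs. The CAF and endothelial intervals overlap in each library. Macrophages, the main source of the ligand, had 9.26 and 24.5 CPM.

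The binding proteins were stromal except for Igfbp4. Igfbp7 had its highest level in endothelial cells (3647 CPM in WT and 4148 in KO), followed by CAFs (1899 and 794), and these classes together held most of its UMIs (37.5% and 47.3%). Igfbp3, which carries most circulating IGF in the ternary complex, was at 2179 and 1990 CPM in endothelial cells against 75.4 and 178 CPM in CAFs. In WT, 146 of the 701 endothelial Igfbp3 UMIs lay in a single cell. Igfbp6, which prefers IGF2, was a CAF gene, with 79.6% of its UMIs in CAFs, 438 and 609 CPM there and 0 UMIs in all 98 endothelial cells. Igfbp4, a binding protein inactivated by PAPP-A, was spread over classes: 691 and 251 CPM in CAFs, 221 and 194 in endothelium, 106 and 101 in melanoma and 108 and 104 in macrophages. Melanoma cells held 70.1% of its UMIs. Igfbp5, a matrix-bound form, was rare, with 57.7% of its UMIs in CAFs (33.5 and 52.3 CPM). Igfbp2 had 36 UMIs in all, of which 33 came from 1 WT CAF of 4271 UMIs. Since 3′ UMIs count molecules and not bases, these levels are set side by side without a length correction.

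**Figure D1:**
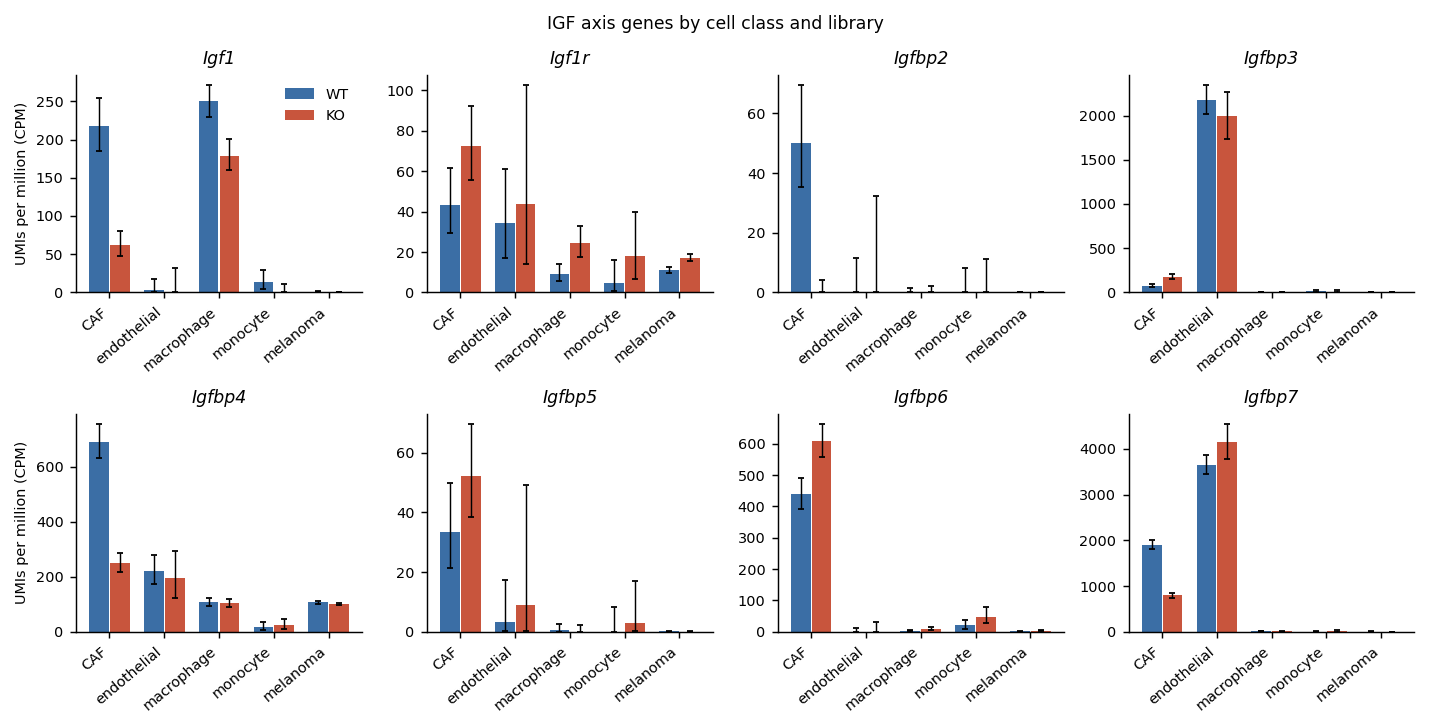
Levels of 8 members (bars, in CPM, each gene on its own axis from 0) in 5 cell classes of the WT and KO libraries, with lines for 95% intervals of counting error. Igfbp7 and Igfbp3 stand highest in endothelial cells, Igfbp6 in CAFs, and Igf1 in macrophages and WT CAFs.

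In CAFs, Igf1, Igfbp4 and Igfbp7 were lower in KO, while Igfbp3 and Igfbp6 were higher. Of the 8 members with at least 20 UMIs in CAFs, 4 (Igf1, Igfbp2, Igfbp4 and Igfbp7) were at least 2-fold lower in KO and 1 (Igfbp3) at least 2-fold higher. Over the 7192 genes read to the same depth, 5.95% were at least 2-fold lower and 5.2% at least 2-fold higher. The median log2 ratio of the 8 members was -0.39, against -0.04 over those genes. Of the 8, 4 lay below 0 and 4 above, so leaving out any 1 member sets the sign of that median. Without the 2 cells that carried Igfbp2, 7 members remained, 3 were at least 2-fold lower and the median was 0.47.

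Igf1 had 156 UMIs in WT CAFs and 56 in KO CAFs, a log2 ratio of KO to WT of -1.80 (-2.27 to -1.36). An Igf1 UMI was found in 38.7% of WT and 14.8% of KO CAFs. With every cell thinned to 2000 UMIs, which left out 30 WT and 40 KO CAFs, the shares were 27.6% and 10.1%. In melanoma cells, which should lack the gene, the unthinned share was 0.809% and 0.536% at median depths of 11311 and 10687 UMIs. The lower level in KO thus went with fewer CAFs in which the transcript was seen. Whether fewer CAFs made it or each made less cannot be told apart at this depth.

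Igfbp7 was the most abundant member in CAFs and went from 1360 UMIs in WT to 713 in KO, a log2 ratio of -1.26 (-1.39 to -1.13). Its transcript was seen in 95.7% of WT and 72.5% of KO CAFs (90.4% and 61.4% after thinning). Igfbp4 went from 495 to 225 UMIs, a log2 ratio of -1.46 (-1.70 to -1.23), and from 70.4% to 40.2% of CAFs (62.2% and 29.6% after thinning). Both intervals lie wholly below a 2-fold decrease. Igfbp2, one of the main serum binding proteins, went from 36 to 0 UMIs. With 0 set to 3 UMIs over the KO CAFs, it was 15.05-fold lower, a log2 ratio of -3.91. The upper end of the interval of its log2 ratio, from the counts as they stand, was -3.54. The WT value rests on 2 cells.

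Igfbp3 moved the other way, from 54 to 160 UMIs, a log2 ratio of 1.24 (0.79 to 1.71). It was seen in 12.9% of WT and 30.1% of KO CAFs (10.9% and 21.2% after thinning). This ratio depended on the gate. When the class thresholds were doubled, it was 0.18, because 6 WT cells that had been set aside as mixed, with 57 Igfbp3 UMIs, then entered the CAFs. Igfbp6 went from 314 to 547 UMIs, a log2 ratio of 0.47 (0.27 to 0.68), with little change in the share of CAFs that showed it (58.1% and 61.6%, or 49.4% and 49.2% after thinning). Igf1r went from 31 to 65 UMIs, a log2 ratio of 0.74 (0.10 to 1.41), which was 0.20 when each cell had equal weight. Igfbp5 went from 24 to 47 UMIs, and the interval of its log2 ratio, 0.64 (-0.10 to 1.42), includes no difference. In a typical CAF fewer members were seen together in KO, 2.51 of 9 on average against 3.02 in WT, or 1.92 against 2.54 after thinning.

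**Figure D2:**
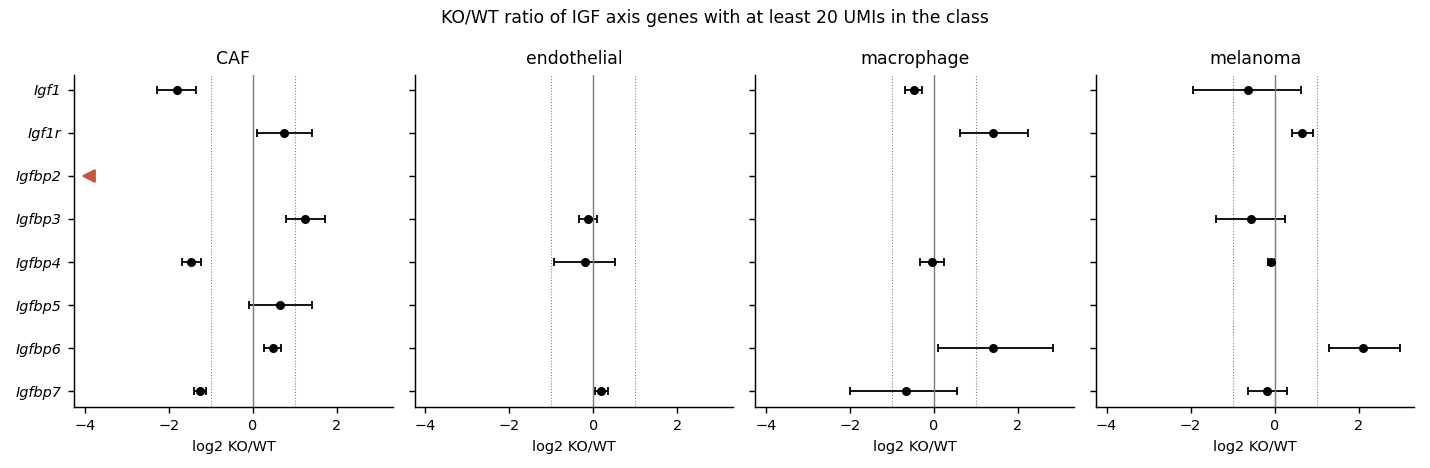
Log2 ratio of KO to WT for each member with at least 20 UMIs in CAFs, endothelial cells, macrophages and melanoma cells, with horizontal lines for 95% intervals of counting error, a triangle for a bound and dotted lines at a 2-fold difference. In CAFs Igf1, Igfbp4 and Igfbp7 lie below -1 and Igfbp3 above 1, whereas in endothelial cells Igfbp3 and Igfbp7 lie near 0.

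The binding protein pool of CAFs therefore had another make-up in KO. The 6 measured Igfbp genes summed to 3188 CPM in WT and to 1884 CPM in KO. Igfbp7 took 59.6% of that sum in WT and 42.1% in KO, and Igfbp4 took 21.7% and 13.3%. Igfbp6 took 13.8% and 32.3%, and Igfbp3 2.37% and 9.46%. These shares are tied to each other, since a smaller share of one gene raises the rest. In endothelial cells the sum was 6050 and 6341 CPM, in macrophages 126 and 122 CPM, and in melanoma cells 114 and 110 CPM, so that of these 4 classes CAFs differed most between libraries. Igfbp4 made up 86.3% and 85.6% of the sum in macrophages and 93.8% and 92.1% in melanoma cells.

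**Figure D3:**
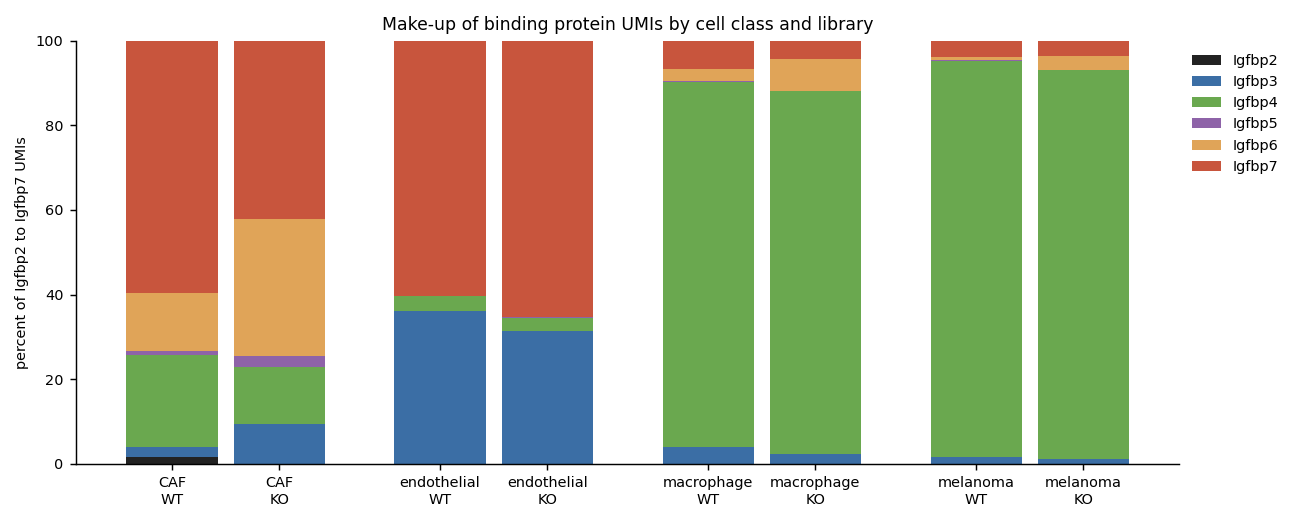
Share of each Igfbp gene in the summed Igfbp UMIs (percent) of 4 cell classes in WT and KO. Igfbp6 and Igfbp3 take a larger share in KO CAFs than in WT CAFs, and Igfbp4 makes up most of the sum in macrophages and melanoma cells of both libraries.

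The promoters of Igfbp3, Igfbp7 and Igfbp4 are shown because these genes differed in opposite directions in the same cells and because Igfbp3 was highest in the hypoxic CAFs described next. Each line gives the 250 bases before the RefSeq start site (GRCm38.p6), 5′ to 3′ on the gene's strand, at chr11:7213924-7214173 (minus) for Igfbp3, chr5:77408046-77408295 (minus) for Igfbp7 and chr11:99040994-99041243 (plus) for Igfbp4. Capitals mark ACGTG or GCGTG, the core of the hypoxia response element, on either strand.
Igfbp3: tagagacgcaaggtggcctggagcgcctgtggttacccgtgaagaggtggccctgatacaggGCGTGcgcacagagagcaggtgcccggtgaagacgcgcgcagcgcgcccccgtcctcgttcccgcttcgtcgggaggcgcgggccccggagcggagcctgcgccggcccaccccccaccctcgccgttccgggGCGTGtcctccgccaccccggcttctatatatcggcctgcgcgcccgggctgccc
Igfbp7: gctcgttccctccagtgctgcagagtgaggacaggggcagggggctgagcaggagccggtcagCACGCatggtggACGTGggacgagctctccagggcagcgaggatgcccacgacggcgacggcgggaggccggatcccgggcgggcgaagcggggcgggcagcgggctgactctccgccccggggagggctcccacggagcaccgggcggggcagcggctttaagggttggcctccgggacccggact
Igfbp4: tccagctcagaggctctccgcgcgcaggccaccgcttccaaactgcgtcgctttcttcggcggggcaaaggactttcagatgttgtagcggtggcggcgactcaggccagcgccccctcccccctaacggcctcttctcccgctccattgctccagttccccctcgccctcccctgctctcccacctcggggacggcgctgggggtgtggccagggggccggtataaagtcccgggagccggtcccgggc
The Igfbp3 window held GCGTG at 188 and at 55 bases before the start. The Igfbp7 window held 2 matches as well, ACGTG at 175 bases and, on the other strand, GCGTG at 187 bases before the start. No match was present in the Igfbp4 window. Of 32851 promoter windows of this length 38.6% held at least 1 such match, so these letters are common. TGATGNAA, the composite element bound by ATF4 with C/EBP proteins, was in 3.45% of all windows and in 0 of the 13 windows of the 9 members. These matches describe the letters of the windows and say nothing of factor binding.

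The CAFs were split by marker genes into vascular (8 WT and 9 KO cells, with Rgs5 and Notch3 among the markers), adventitial-type (35 and 68, Pi16 and Dpp4), activated (77 and 47, Postn and Acta2), hypoxic (21 and 69, Vegfa and Slc2a1) and cycling cells (36 and 29, Mki67 and Top2a). No member was a marker. Activated cells made up 41.4% of WT and 20.5% of KO CAFs, and hypoxic cells 11.3% and 30.1%. The subtypes differed in which binding protein they carried, given here over both libraries although their shares differed. Vascular CAFs were highest in Igfbp7 (3163 CPM, 2763 to 3604) and had 42.2 CPM of Igfbp6. Adventitial-type CAFs were highest in Igfbp6 (1147 CPM, 1034 to 1270), as they were in each library. Igfbp5 was highest there only in KO (163 CPM), since in WT they had 44.0 CPM and activated CAFs 46.3. Hypoxic CAFs were highest in Igfbp3 (330 CPM, 273 to 395). In WT they had 283 CPM against 78.3 in activated CAFs, the next highest, and in KO 347 CPM against 135 in cycling CAFs. Igfbp7 was lowest in hypoxic CAFs in each library (739 and 501 CPM), in KO within counting error of cycling CAFs (538 CPM). A second set of gates let a cell belong to several subtypes, which widened the hypoxic set from 21 to 82 WT and from 69 to 162 KO cells. Under these overlapping gates hypoxic CAFs had 114 CPM of Igfbp3 in WT and 189 in KO, close to the 169 CPM of the activated KO set. Igfbp7 was then lowest in the hypoxic set only in WT (1437 CPM). In KO that set had 680 CPM, above the adventitial-type (635 CPM) and cycling sets (489 CPM).

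Igf1 was lower in KO in the adventitial-type, activated and cycling CAFs, whereas the hypoxic CAFs gave no stable value. Adventitial-type CAFs had the highest WT level, 429 CPM, and 77.4 CPM in KO, a log2 ratio of -2.47 (-3.36 to -1.63). Activated CAFs were at 235 and 82.2 CPM (log2 ratio -1.52, -2.40 to -0.71) and cycling CAFs at 206 and 24.5 CPM (log2 ratio -3.07, -5.01 to -1.61). Hypoxic CAFs had 43.5 and 49.0 CPM, from 4 and 13 UMIs, and the log2 ratio was 0.17 (-1.52 to 2.25). With overlapping gates the hypoxic set had 62 and 36 UMIs, 164 and 50.9 CPM, and a log2 ratio of -1.69 (-2.32 to -1.07). The cells this set added were assigned to other subtypes by the first gates, and they held most of its WT UMIs. The first gates set no direction for Igf1 in hypoxic CAFs. Differences between these ratios were not tested.

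Igfbp4 and Igfbp7 followed a like course across the subtypes. The log2 ratio of Igfbp4 was -0.94 in adventitial-type (1034 and 538 CPM), -1.89 in activated (798 and 216 CPM) and -2.33 in cycling CAFs (646 and 128 CPM), all with intervals below 0. In hypoxic CAFs it was -0.53 (-1.76 to 0.81) from 9 and 18 UMIs, and -1.66 (-1.999 to -1.33) from 205 and 121 UMIs under overlapping gates. For Igfbp7 it was -1.23 in adventitial-type and in activated CAFs, -1.64 in cycling and -0.56 in hypoxic CAFs (-1.08 under overlapping gates). In the vascular CAFs, where Igfbp7 is most abundant, its level was 3225 CPM in WT and 3098 in KO, a log2 ratio of -0.06 (-0.45 to 0.33) that is set by 17 cells. Overlapping gates gave 0.21 (-0.12 to 0.54) for this value.

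Igfbp3 was higher in KO beyond counting error in cycling CAFs under both kinds of gate. In adventitial-type, activated and hypoxic CAFs this held only under overlapping gates, whose sets share cells. In hypoxic CAFs the log2 ratio was 0.30 (-0.35 to 0.98), and 0.74 (0.23 to 1.27) under overlapping gates. In cycling CAFs it went from 19.6 to 135 CPM, and the log2 ratio was 2.78 (1.22 to 4.78), and in adventitial-type CAFs from 22.0 to 86.0 CPM (1.97, -0.07 to 5.11). Overlapping gates gave 1.18 (0.24 to 2.23) for the adventitial-type set. In activated CAFs the log2 ratio was 0.53 (-0.39 to 1.45), and 1.17 (0.69 to 1.68) under overlapping gates. Igfbp5 had 4 and 38 UMIs in adventitial-type CAFs (log2 ratio 1.89, 0.42 to 3.84), but overlapping gates gave 0.70 (-0.15 to 1.63), an interval that includes no difference. Activated CAFs had 13 and 2 Igfbp5 UMIs. Igfbp6 had 1034 and 1192 CPM in adventitial-type CAFs (0.21, -0.14 to 0.56), and 0.37 (0.12 to 0.61) was its log2 ratio under overlapping gates.

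Because the subtype shares differed, the CAF ratios were recomputed with the KO subtypes weighted to their WT shares. They were -1.74 for Igf1, -1.60 for Igfbp4, -1.12 for Igfbp7, 0.95 for Igfbp3 and 0.25 for Igfbp6. Igfbp5 went to -0.07, so its direction rested on the subtype shares. With the hypoxic CAFs left out, Igf1 was at -1.84, Igfbp4 at -1.25, Igfbp7 at -1.18 and Igfbp3 at 1.26.

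**Figure D4:**
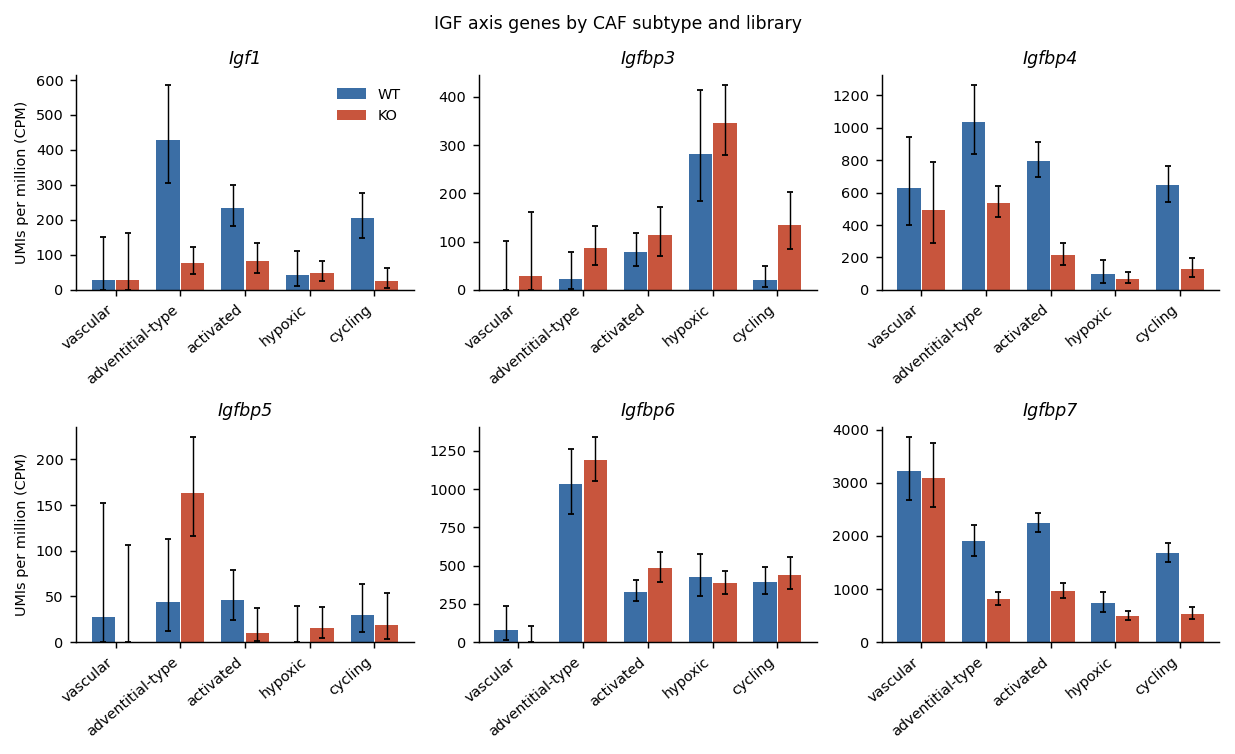
Levels of 6 members (bars, in CPM, each gene on its own axis) in the vascular, adventitial-type, activated, hypoxic and cycling CAFs of WT and KO, with 95% intervals of counting error. Igfbp3 is highest in hypoxic CAFs of both libraries, and Igf1 is lower in KO in the adventitial-type, activated and cycling CAFs of these gates, which put each cell in 1 subtype.

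The CAF ratios depended on which KO cells were compared. By transcripts of the sex chromosomes, 149 WT and 60 KO CAFs showed Xist without any Y-linked gene (Xist cells), 49 KO CAFs showed a Y-linked gene without Xist (Y-linked cells), 120 KO CAFs showed neither and 0 showed both. Atf4 was low in each KO set (20.03, 38.1 and 55.0 CPM, against 247 CPM in WT Xist cells). Igf1 stood at 218 CPM in WT Xist CAFs, 155 CPM in KO Xist CAFs, 38.1 CPM in KO Y-linked CAFs and 34.4 CPM in the KO CAFs with neither. Against the WT Xist cells, the log2 ratio was -0.49 (-1.10 to 0.09) for the KO Xist cells and -2.51 (-3.61 to -1.59) for the KO Y-linked cells. Within the KO library, Y-linked cells stood 2.03 log2 units below Xist cells, a log2 ratio of -2.03 (-3.22 to -0.96). Over all CAFs, the Igf1 difference was thus not beyond counting error when cells with Xist alone were compared. By subtype, WT Xist and KO Xist cells had 393 and 178 CPM in adventitial-type CAFs (30 and 12 UMIs), 249 and 70.4 CPM in activated CAFs (58 and 3 UMIs) and 52.4 and 188 CPM in hypoxic CAFs (4 and 10 UMIs). Within KO, Y-linked over Xist cells gave -1.80 (-3.89 to -0.08) in adventitial-type CAFs and 0.51 (-1.72 to 3.14) in activated CAFs.

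Igfbp4 and Igfbp7 kept their direction in both sets and differed in size. Igfbp4 was at 697 CPM in WT Xist, 471 in KO Xist and 137 in KO Y-linked CAFs, and Igfbp7 at 1886, 1091 and 679 CPM. Against WT Xist cells, the log2 ratio was -0.57 and -2.35 for Igfbp4 and -0.79 and -1.47 for Igfbp7 in the KO Xist and Y-linked sets. Within KO, Y-linked over Xist cells gave -1.78 (-2.37 to -1.21) for Igfbp4 and -0.69 (-0.98 to -0.39) for Igfbp7. Igfbp3 was higher in both KO sets, at 280 and 145 CPM against 72.5 CPM in WT Xist cells. Igfbp6 was at 521 and 721 CPM against 462 CPM, with log2 ratios of 0.17 (-0.17 to 0.50) and 0.64 (0.37 to 0.91). Its difference among Xist cells was thus not beyond counting error. With Xist cells only, 1 of 8 members (Igfbp2) was at least 2-fold lower in KO and 2 (Igfbp3 and Igfbp5) at least 2-fold higher. The share of all genes past 2-fold was not computed for the Xist cells, so these counts have no background. The KO Xist set held 23 adventitial-type CAFs among its 60 and the Y-linked set 14 among its 49, with 16 and 15 hypoxic. Their median depths were 3044 and 4836 UMIs. Since each library pooled 2 tumours, host sex, mouse and tumour cannot be told apart here.

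**Figure D5:**
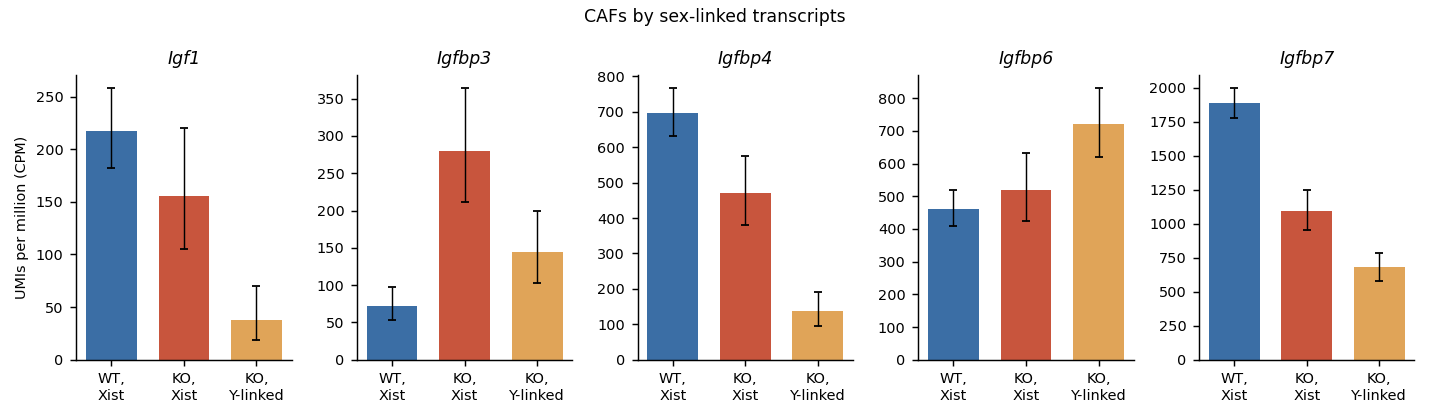
Levels of 5 members (bars, in CPM, each gene on its own axis) in CAFs with an Xist UMI of the WT and KO libraries and in KO CAFs with a Y-linked UMI, with 95% intervals of counting error. Igf1 and Igfbp4 are lowest in the KO Y-linked cells, and Igfbp3 is lowest in the WT cells.

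In macrophages, the other source of Igf1, the ligand was also lower in KO. The count went from 567 to 307 UMIs, or 250 to 179 CPM, and its log2 ratio was -0.48 (-0.69 to -0.28), and the share of macrophages with an Igf1 UMI from 36.2% to 28.4% (36.8% and 29.3% after thinning). Resident-type macrophages, gated with Lyve1 and Folr2 among others, were at 250 and 155 CPM (log2 ratio -0.69), and the other macrophages at 250 and 205 CPM (-0.29). Among Xist cells, macrophages had 268 CPM in WT against 159 in KO (log2 ratio -0.75), and Y-linked KO macrophages had 200.1 CPM. The ratio was nearer 0 than that of CAFs over all cells, but not among Xist cells (-0.75 in macrophages and -0.49 in CAFs). Within KO the log2 ratio of Y-linked to Xist macrophages was 0.33 (-0.28 to 0.96), an interval that includes no difference. In CAFs the same ratio was -2.03 (-3.22 to -0.96).

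Of the 5 members with at least 20 UMIs in macrophages, 0 were at least 2-fold lower in KO and 2 (Igf1r and Igfbp6) at least 2-fold higher, where 2.69% and 2.93% of 8895 genes were. Igf1r had 21 and 42 UMIs, a log2 ratio of 1.40 (0.62 to 2.23). This ratio was 0.76 after thinning (10 and 13 UMIs) and 0.18 among Xist cells (14 and 2 UMIs), both short of 2-fold. For KO Y-linked against WT Xist cells it was 1.82. Igfbp6 had 8 and 16 UMIs, 3.53 and 9.33 CPM, of which free RNA would give 1.19 and 2.13. Igfbp4 did not differ beyond counting error (log2 ratio -0.06), although in resident-type macrophages it was at 178 and 112 CPM (-0.66).

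Endothelial cells, the richest source of Igfbp3 and Igfbp7, showed no difference of CAF size. Igfbp3 was at 2179 CPM (2021 to 2347) in WT and 1990 CPM (1739 to 2267) in KO, a log2 ratio of -0.13 (-0.35 to 0.09). The sign of this value was not stable, since a 15% limit on mitochondrial UMIs gave 0.21 and cells with Xist alone gave 0.70. Igfbp7 went from 3647 to 4148 CPM, with a log2 ratio of 0.19 (0.03 to 0.34). Over all kept cells, however, Igfbp3 and Igfbp7 were lower in KO, with log2 ratios of -1.22 and -1.05, and the libraries held 71 and 27 endothelial cells. A whole-tumour level alone mixes the number of cells with the RNA in each. The Igfbp3 sums of 1046 and 450 UMIs held 701 and 226 from endothelial cells and 231 and 28 from mixed cells. CAFs went the other way, with 54 and 160. The Igfbp7 sums of 2956 and 1428 UMIs held 1360 and 713 from CAFs, 1173 and 471 from endothelial cells and 310 and 101 from mixed cells. The cause of these all-cell differences was not tested. Igf1 over all kept cells was at 31.9 and 15.5 CPM (log2 ratio -1.04).

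The melanoma cells, which carry intact Atf4 in both hosts, differed in the receptor. Igf1r went from 10.9 to 17.3 CPM (210 and 344 UMIs), a log2 ratio of 0.67 (0.41 to 0.92). Igfbp4, their only abundant binding protein, was seen in 61.5% and 59.0% of cells, at 106 and 101 CPM (log2 ratio -0.08, -0.16 to 0.01). Of the 6 members with at least 20 UMIs, 0 were at least 2-fold lower and 1 (Igfbp6, log2 ratio 2.10) at least 2-fold higher, against 1.02% and 3.37% of 12193 genes. Igfbp6 had 0.830 and 3.57 CPM there, of which 0.637 and 1.41 CPM would come from free RNA.

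The wider pathway was read with the same ratios. Of 40 further genes listed (receptors, other binding proteins, proteases, adaptors, kinases and regulators of the ligands), 24 had at least 20 UMIs in CAFs. Of these, 0 were at least 2-fold lower in KO and 2 at least 2-fold higher, where 5.95% and 5.2% of 7192 genes were. The 2 listed genes higher in KO were Stc2, a secreted inhibitor of PAPP-A (3 and 23 UMIs, log2 ratio 2.61, 0.89 to 4.99), and the transcription factor Stat5a (8 and 35 UMIs, 1.80, 0.67 to 3.12). Both were named after their values were seen. At 50 UMIs or more, 16 genes remained in CAFs, with 3 intervals below 0 and 0 above, where 15.3% and 12.9% of 4282 genes lay so. The 3 were the secreted IGFBP proteases Htra3 (254 and 147 CPM, log2 ratio -0.79, -1.12 to -0.46) and Htra1 (188 and 125 CPM, -0.60, -0.97 to -0.22) and Igf2r, the scavenger receptor of IGF2 (134 and 90.2 CPM, -0.57, -1.02 to -0.13). In macrophages 14 genes were read to that depth, 0 differed by 2-fold, and 0 intervals lay below and 4 above 0 (12.0% and 11.4% of 6741 genes), led by the transcription factor Foxo3 (14.1 and 27.4 CPM, 0.96, 0.28 to 1.65) and the PI3K regulatory subunit Pik3r1 (37.9 and 63.0 CPM, 0.73, 0.31 to 1.16). Stat5b, which relays growth hormone signals to Igf1, was at 18.5 and 12.2 CPM with an interval that includes 0 (-0.60, -1.43 to 0.19). In melanoma cells 26 were read, 4 intervals lay below and 6 above 0 (22.6% and 25.6% of 10985 genes), and 1 gene was 2-fold higher in KO, the RNA-binding protein gene Igf2bp3 (7.78 and 19.96 CPM, 1.36, 1.08 to 1.64). The protease Adamts1 (0.62) and the kinase Mtor (0.43) were next by size. At 20 UMIs or more, 19 listed genes were read in macrophages and 27 in melanoma cells. In macrophages 0 were at least 2-fold lower and 0 higher, where 2.69% and 2.93% of all genes were. In melanoma cells 0 were lower and 2 higher, where 1.02% and 3.37% of all genes were.

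The genes whose levels ran most like each member were found by Pearson correlation of log2(CPM + 10) over 20 points, each a cell class in 1 library with at least 20 cells, among 9983 genes. The points share libraries and depth, so the values are descriptions. Igfbp7 was nearest to Ehd2, Col4a2 and Col18a1 (0.99 each), of which the last pair encode basement membrane collagens. Igfbp3 was nearest to Jcad (0.96), Apln (0.96) and Ecscr (0.94), genes known from endothelium. Igfbp6 was nearest to Tnfaip6 (0.98), Uap1 (0.97) and Lox (0.96), the last a collagen cross-linking enzyme. Igf1 was nearest to Anpep (0.87), Timp2 (0.85) and Rnf150 (0.85), Igf1r to Rrbp1 (0.90), Klhl7 (0.89) and Sec31a (0.88), and Igfbp4 to B4gat1 (0.90), Cdc16 (0.89) and Creb3 (0.85).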

How the data were processed

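Dissociated tumours were run as droplet 3′ scRNA-seq (the kit version differs between the sources). The authors deposited, for each library, a matrix of raw UMI counts that had been made with Cell Ranger 3.1.0 on GRCm38 (Seurat 3.2.1 is also in the submitters' processing notes). No normalisation had been applied. The filters required 200 to 5000 genes per cell and a mitochondrial share of UMIs of 7.5% or less. Classes were gated by the summed marker share of a cell's UMIs, each threshold at the low point between modes where there was one. Cells above the thresholds of several classes were left out as mixed. Doublets called by Scrublet in each library were removed only in an alternative and not for the main values. Subtypes went to the highest mean z-score. Counts were summed per class and library and expressed as CPM. Levels have exact Poisson, shares exact Clopper-Pearson, and ratios exact conditional binomial intervals at 95%. These cover counting error only, and p-values were not computed because each genotype had 1 library. A count of 0 was set to 3 for bounds. Free RNA was estimated from melanoma markers in host cells, and for melanoma cells from host markers. The ratio code was tested on simulated data.

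All 9 members are named. Pathway genes were the 3 of largest absolute log2 ratio among those with at least 50 UMIs, and like genes the 3 of highest correlation among those with at least 200 UMIs. Members and lists were chosen with earlier results of these data known. Promoters came from the RefSeq table, in which all 9 members had an entry. Python 3.11.15, numpy 2.4.6, pandas 2.3.3, scipy 1.17.1, scanpy 1.11.5, R 4.3.3 and edgeR 4.0.16 (for TMM scaling only) were used.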

Additional observations from a re-analysis of the deposited data

Results flagged for a closer look

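Igfbp7 was lower in KO in CAFs but not in endothelial cells, its other main source. Its log2 ratio of KO to WT was -1.26 in CAFs and 0.19 in endothelial cells. The endothelial value ranged from 0.04 to 0.51 over the alternatives run, so its size is not settled. The difference between these classes was not tested.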

How the results depend on the processing

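No paired analysis was possible because a single library stood for WT and another for KO. Of the values of results that answer a comparison, 79 stayed within counting error (counts within 1.5 times), 9 moved and 1 reversed. With Xist cells alone, the log2 ratio of Igf1 was -0.49 in CAFs and -0.75 in macrophages, and the CAF median was -0.16. The CAF members at least 2-fold lower then numbered 1 and those higher 2. Shares over all genes were not computed under the alternatives. Doubled gate thresholds left 0 members higher. Thinning gave 1.04 for Igf1r in melanoma cells. Among alternatives chosen after seeing the data, KO Y-linked against WT Xist CAFs gave -2.51 for Igf1 and 0 members higher, and leaving out the cells with an Igfbp2 UMI reversed the CAF median to 0.47. With 4 of the 8 members below 0 and 4 above, leaving out any 1 member sets the sign of that median. Why the other values moved was not tested. Weighting by subtype and leaving out hypoxic CAFs were also added after seeing the data. Of the other values, 212 stayed within counting error, 25 moved and 0 reversed. Subtype values from fewer than 20 UMIs are not among them, and of these Igf1 in hypoxic CAFs went from 0.17 to -1.69 under overlapping gates. The CAF log2 ratio stayed negative under every alternative run for Igf1, Igfbp4 and Igfbp7, and positive for Igfbp3. Equal weighting of cells gave no value for Igfbp2, so no median or counts of members were had there. Depth limits Igfbp5, Igf1r and every subtype value from fewer than 20 UMIs.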

Other observations

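Outside the gated classes, Igfbp5 had 37 UMIs in 8 ungated cells, 30.1% of its UMIs in kept cells. Of these, 34 lay in 5 cells with at least 5 Igfbp5 UMIs each, 2 in WT and 3 in KO. The same 5 cells held 62 Krt8, 72 Krt18 and 40 Epcam UMIs, and 4 of them held 51 Krt19 UMIs. These genes encode simple epithelial keratins and an epithelial adhesion molecule. CAFs held 0 UMIs of Krt8, Krt18 and Epcam. The cells and genes were picked out after their values were seen.

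Barcodes removed by the filters, 2443 in WT and 1917 in KO, also carried the members. Igfbp4 was at 109 CPM there in both libraries, close to its level in the kept cells, 124 and 105 CPM. Igf1 was at 7.59 and 6.38 CPM in removed barcodes, below the 31.9 and 15.5 CPM of the kept cells, and Igfbp7 at 43.5 and 30.2 CPM, below 117 and 56.5 CPM.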
